A study of Mus musculus with 24 samples.

Results

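Metabotropic and neuromodulator receptors were followed in developing pyramidal neurons of the mouse cortex, by the expression of the 41 receptor genes, of 9767 genes in the deposited expression table, whose symbols belong to the named receptor families. The families were the metabotropic glutamate (Grm) and GABA (Gabbr) receptors, the muscarinic and nicotinic acetylcholine receptors (Chrm, Chrna, Chrnb), the receptors for noradrenaline (Adra, Adrb), dopamine (Drd), serotonin (Htr), histamine (Hrh), adenosine (Adora) and ATP (P2r), the cannabinoid and lysophospholipid receptors (Cnr, S1pr, Lpar), and the receptors for opioids, somatostatin, neuropeptide Y, neurotensin, tachykinins, corticotropin-releasing hormone, galanin, melanin-concentrating hormone and orexin. The choice was made by symbol alone, so it also holds 6 ion channel subunits (Chrna4, Chrna5, Chrna7, Chrnb2, P2rx2 and P2rx4) beside the G protein-coupled receptors. All 41 are annotated as protein-coding, with 1553 to 8072 nt of exon sequence, and lie on build NCBIM37 (mm9), for example Hrh1 at chr6:114347930-114433290, Chrna5 at chr9:54828687-54855586, Crhr1 at chr11:103994169-104036837, S1pr1 at chr3:115413351-115417973 and Drd1a at chr13:54146555-54151027. Another 76 annotated genes with matching symbols were not analysed here.

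The study asked how gene regulation changes as cortical neurons that no longer divide mature, and profiled callosal projection neurons of layer 2/3 (Cux2 CPN, here CPN) and corticothalamic projection neurons of layer 6 (Tle4 CThPN, here CThPN) by bulk RNA-seq at 1 embryonic age (E18.5) and 5 postnatal ages (P1, P3, P7, P21 and P48, in days). The CPN came from Cux2-CreERT2:Ai14 mice and the CThPN from Tle4-2A-CreERT2:Ai14 mice, both labelled as strain C57BL/6 (a mixed C57BL/6J background by the methods), and the pregnant mothers of both were given 4-hydroxytamoxifen so that Cre switched on the red reporter tdTomato. Cells with tdTomato were sorted from dissociated somatosensory and motor cortex. Each of the 12 groups has 2 libraries, and the table holds 1 value per gene and group. The class of a cell is therefore the activity of a Cre driver on the day of induction, each library pools animals of both sexes, and the Cux2-CreERT2 line has been described to label some cortical interneurons as well, which the study examined by single-cell sequencing that was not analysed here. By the methods the papain concentration was raised at P21 and P48, whereas the sample labels give a single concentration, so the change of enzyme and the step from early to late ages cannot be told apart.

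Receptors of this kind turn transmitters and hormones into slow changes of excitability and release. Receptors coupled to Gs raise cyclic AMP, those coupled to Gi/o lower it and open inward-rectifier potassium channels, and those coupled to Gq release calcium from internal stores through phospholipase C. In the cortex, acetylcholine, noradrenaline, serotonin, dopamine and histamine arrive from subcortical nuclei and set arousal and attention. GABA, adenosine, endocannabinoids and many neuropeptides come largely from local cells.

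Expression is given in FPKM, a count of sequenced fragments divided by transcript length and by library size, which allows levels to be set side by side between genes. Differences are differences of log2(FPKM + 1). Early is the mean over E18.5, P1, P3 and P7, late is the mean over P21 and P48, the age difference is late minus early, and the class difference is CPN minus CThPN. A gene is called higher or lower where a difference is at least 1.5, on a scale that understates the change of genes with low FPKM. With 1 value per group there is no error, no test and no replicate check behind any value, and the number of reads cannot be read from FPKM, with only a minimum depth given in the methods. The table lists genes that reach 10 FPKM in some group, the receptors included, so their counts are set beside the share of all 9767 genes that meets the same limit and describe these libraries only. The library kit keeps no strand, and exons of a gene on the other strand overlap 11.4% of the exon length of Adora1, 11.1% of Hrh3, 7.7% of Adra1d, 5.2% of Chrm1 and less of Chrm4 and Grm7, so the values of these 6 genes may hold reads of their partners. In bulk samples, fewer cells of a type and less RNA per cell cannot be told apart.

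Of the 41 receptor genes, 34 were matched by symbol to promoters in a RefSeq table, and 24 of these have a single start there. The promoters of 4 of the 24 are shown because, among these 24, their genes had the largest shifts of the class difference between early and late ages, toward CPN for Adrb1 (a shift of 3.44) and Crhr1 (3.04), and toward CThPN for Sstr4 (-2.40) and Ntsr2 (-2.15). The 250 bases before the start are printed 5′ to 3′ on the coding strand and lie on build NCBIM37 (mm9) at chr19:56796357-56796606 for Adrb1, chr11:103993845-103994094 for Crhr1, chr2:148220863-148221112 for Sstr4 and chr12:16660026-16660275 for Ntsr2, all on the plus strand. Capitals mark a GC box, GGGCGG on either strand, which lies at -202 to -197 from the start in Adrb1 (on the minus strand) and at -13 to -8 in Crhr1.
Adrb1: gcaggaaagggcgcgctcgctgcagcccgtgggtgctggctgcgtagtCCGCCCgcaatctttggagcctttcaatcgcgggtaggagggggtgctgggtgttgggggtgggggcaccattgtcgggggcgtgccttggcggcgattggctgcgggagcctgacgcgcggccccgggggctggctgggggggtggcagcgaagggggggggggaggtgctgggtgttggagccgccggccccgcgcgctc
Crhr1: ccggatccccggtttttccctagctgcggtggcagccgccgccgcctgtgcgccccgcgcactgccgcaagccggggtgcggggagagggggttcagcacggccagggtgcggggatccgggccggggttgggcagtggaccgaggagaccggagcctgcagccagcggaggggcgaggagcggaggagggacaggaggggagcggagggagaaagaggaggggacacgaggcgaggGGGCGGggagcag
Sstr4: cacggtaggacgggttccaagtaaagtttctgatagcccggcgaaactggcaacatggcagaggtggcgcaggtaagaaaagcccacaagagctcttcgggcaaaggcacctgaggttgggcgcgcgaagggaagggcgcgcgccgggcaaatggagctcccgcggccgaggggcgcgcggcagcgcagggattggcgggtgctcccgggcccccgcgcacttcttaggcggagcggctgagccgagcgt
Ntsr2: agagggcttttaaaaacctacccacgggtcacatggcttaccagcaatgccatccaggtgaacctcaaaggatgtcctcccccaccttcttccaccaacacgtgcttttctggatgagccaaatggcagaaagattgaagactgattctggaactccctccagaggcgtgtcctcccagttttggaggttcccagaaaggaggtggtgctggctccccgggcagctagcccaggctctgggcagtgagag
None of the searched motifs matched in the Sstr4 and Ntsr2 windows, which says only that these letters are not in them. G and C made up 74.0% of the Adrb1 window, 74.8% of Crhr1, 67.2% of Sstr4 and 55.2% of Ntsr2, and the ratio of observed to expected CpG was 0.78, 0.79, 1.02 and 0.21, so that the Ntsr2 window was the one poor in CpG. The RefSeq start lies 255 bases before the GENCODE gene start for Adrb1 and 74 bases before it for Crhr1, and at the same base for the other two.

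Across the 49 promoter windows of the 34 receptor genes, the median GC content was 63.6%, against 52.4% over all 32851 promoters in the table, and the median CpG ratio was 0.575 against 0.373. The GC box was found in 24 of the 49 windows (49%) and in 32.7% of all promoters. A TATA box (TATAAA) was in 2 windows (4.08%, all promoters 12.4%), an E-box of the type that NeuroD proteins bind (CAGATG) in 2 (4.08%, all 14.4%) and a cyclic AMP response element (TGACGTCA) in 1 (2.04%, all 1.55%). Both strands were searched for each motif, several windows belong to the same gene, and a match is a description of the sequence.

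The summed expression of the receptor genes was higher at the late ages in both neuron classes. The summed FPKM of the 41 genes was 441, 533.1, 577.7, 778.8, 1373 and 1157 in CPN from E18.5 to P48, and 552.3, 649.1, 663.3, 868.6, 1143 and 1130 in CThPN. The number of receptor genes at 10 FPKM or more was 12, 16, 16, 19, 28 and 23 in CPN and 13, 14, 21, 22, 25 and 25 in CThPN at the same ages, while the share of all genes at this level lay between 73.6% and 76.6% in the 12 groups. A gene is listed only if it reaches 10 FPKM in some group. Some, such as Adra1d and Htr2a, reach that level only in the late CPN groups. Such genes can count late and not early, so this count by itself does not measure a rise with age. In both classes the sum was highest at P21. The median age difference was 1.17 in CPN and 1.17 in CThPN, while the median over all genes was 0.0 in each.

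**Figure D1:**
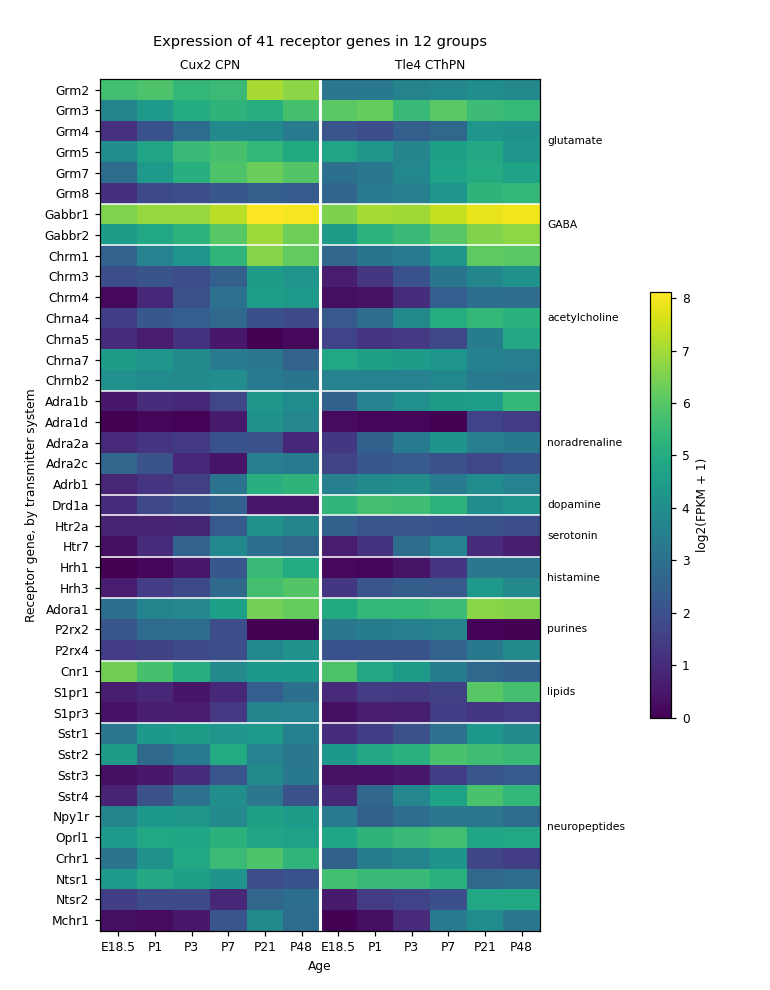
Expression of the 41 receptor genes as log2(FPKM + 1), 1 row per gene grouped by transmitter system and 1 column per group, with the 6 ages of CPN on the left and of CThPN on the right. Gabbr1 is the brightest row, with 276.1 FPKM in CPN at P21, and the step between P7 and P21 is visible in many rows of both classes.

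In CPN, 17 receptor genes were higher at the late ages (10.9% of all genes were) and 2 were lower (7.04% of all genes). In CThPN, 15 were higher (9.19% of all genes) and 4 were lower (5.46%). The genes higher late in both classes were 8 (6.55% of all genes), namely the muscarinic receptor genes Chrm1, Chrm3 and Chrm4, the histamine receptor genes Hrh1 and Hrh3, Mchr1, S1pr1 and Sstr3. The neurotensin receptor gene Ntsr1 and the ATP-gated channel gene P2rx2 were the 2 lower late in both (3.68% of all genes). Past the limit in CPN and not in CThPN were 9 genes (4.3% of all genes), Adora1, Adra1b, Adra1d, Adra2c, Adrb1, Grm7, Htr2a, P2rx4 and S1pr3, of which Adora1, Adra1b, Adra1d, Grm7 and P2rx4 were also called in CThPN at a limit of 1. Past it in CThPN and not in CPN were 7 genes (2.64% of all genes), Chrna4, Chrna5, Grm4, Grm8, Ntsr2, Sstr1 and Sstr4, of which Grm4 and Ntsr2 were also called in CPN at a limit of 1, Grm4 without P7 and Ntsr2 with a pseudocount of 0.1. No test of the difference between classes stands behind either set.

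**Figure D2:**
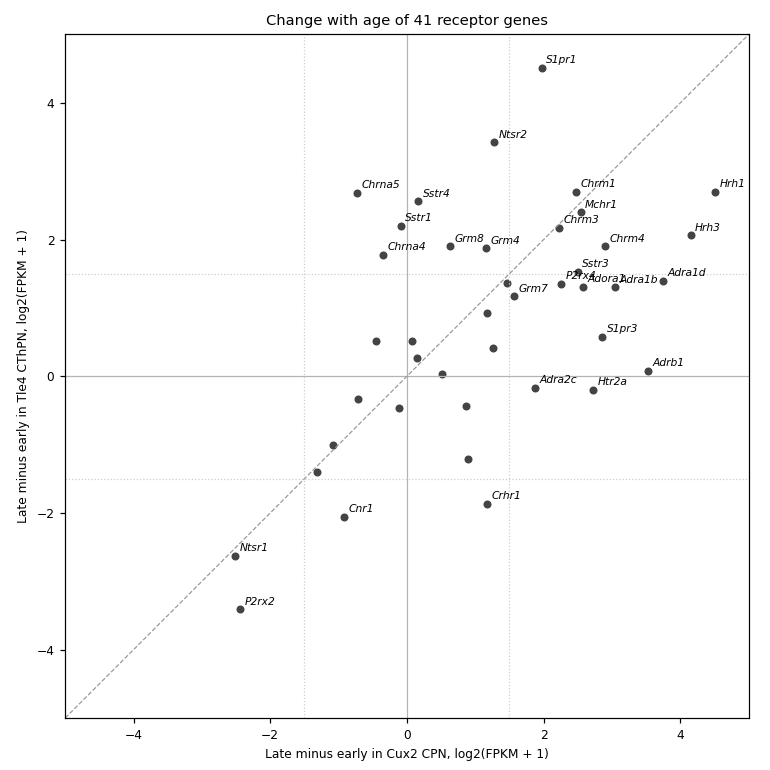
Late minus early difference of log2(FPKM + 1) of each receptor gene in CPN (horizontal) and CThPN (vertical), with dotted lines at 1.5 and -1.5, a dashed line of equal change, and names for genes past the limit in at least 1 class. Hrh1 lies farthest right at 4.51 and S1pr1 highest at 4.51, and Crhr1 lies below the limit on the vertical axis at -1.87 while its horizontal value is 1.17.

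Of the 5 steps between neighbouring ages, which differ in length, the one from P7 to P21 had the most receptor genes past the limit in each class. In the summed FPKM of CThPN this step (868.6 to 1143) was smaller than the climb from E18.5 to P7 (552.3 to 868.6), which was spread over shorter steps. From P7 to P21, 16 receptor genes were higher at P21 in CPN (6.29% of all genes) and 8 in CThPN (6.53%), namely Adra1d, Chrm1, Chrna5, Grm4, Hrh1, Hrh3, Ntsr2 and S1pr1. Lower at P21 were Drd1a, Ntsr1 and P2rx2 in CPN (3 genes, 4.74% of all) and Crhr1, Htr7, Ntsr1 and P2rx2 in CThPN (4 genes, 4.34% of all). Few receptor genes passed the limit over an earlier interval. In CPN these were Grm7 and Sstr2 from E18.5 to P1 (2 genes, 1.53% of all), Htr7 from P1 to P3 (1 gene, 0.84%) and Adrb1, Hrh1, Mchr1 and Sstr2 from P3 to P7 (4 genes, 2.57%). In CThPN they were Sstr4 from E18.5 to P1 (1 gene, 1.23%), Htr7 from P1 to P3 (1 gene, 0.788%) and Mchr1 from P3 to P7 (1 gene, 1.31%). From P21 to P48 the count was 0 in CPN (0.676% of all genes) and 0 in CThPN (0.932%). Chrna5 in CThPN came closest to the limit over this interval, with a difference of 1.44.

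The class difference was wider at the late ages. The median absolute class difference of the receptor genes was 0.59 early and 1.5 late, against 0.25 and 0.26 over all genes. Early, 2 receptor genes were higher in CPN (2.72% of all genes), Grm2 and Sstr1, and 5 in CThPN (2.54%), Adora1, Adra1b, Adrb1, Drd1a and Grm8. Late, 12 were higher in CPN (3.44% of all genes) and 9 in CThPN (3.63%). The first set held Adra1d, Adra2c, Chrm4, Cnr1, Crhr1, Grm2, Hrh1, Hrh3, Htr2a, Htr7, Npy1r and S1pr3, and the other Adra2a, Chrna4, Chrna5, Drd1a, Grm8, Ntsr2, S1pr1, Sstr2 and Sstr4. With the groups scaled by median ratios, or to equal sums over genes longer than 300 nt, Adra2c, Chrm4 and Npy1r were no longer past the limit and the first set held 9.

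Grm2 was the 1 receptor gene higher in CPN by at least 1.5 both early and late (1.11% of all genes), and Drd1a and Grm8 were the 2 higher in CThPN at both (1.13%). The class difference itself shifted by at least 1.5 between early and late in 16 receptor genes (6.67% of all genes), with a median absolute shift of 1.01 against 0.26 over all genes. By the wider criterion of a difference past the limit in any of the 66 pairwise comparisons, one side of which exceeds 10 FPKM, 39 of the 41 were dynamic (46.9% of all genes), the others being Chrnb2 and Oprl1.

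**Figure D3:**
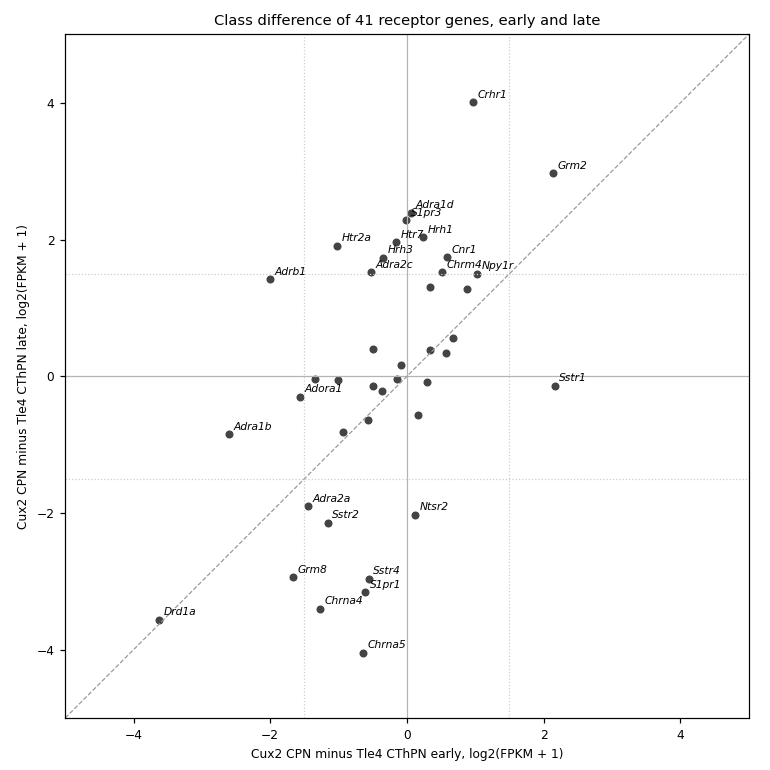
Class difference of each receptor gene, CPN minus CThPN in log2(FPKM + 1), at the early ages (horizontal) and the late ages (vertical), with dotted lines at 1.5 and -1.5, a dashed line of no shift, and names for genes past the limit early or late. Drd1a lies near the dashed line at -3.63 early and -3.56 late, whereas Crhr1 at 4.01 and Chrna5 at -4.05 late lie far from it.

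Metabotropic glutamate receptors sense glutamate outside the fast synaptic response. Grm2 and Grm3 encode the group II receptors, which couple to Gi/o and hold back release. Grm2 was 49.8, 57.1, 41.2, 45.1, 131.4 and 102.3 FPKM in CPN from E18.5 to P48. In CThPN it was 8.25, 8.72, 11.4, 12.9, 14.9 and 13.03 FPKM at the same ages. Every CPN value was above every CThPN value, with a class difference of 2.13 early and 2.97 late. Grm3 showed the opposite order early, with 11.68 to 37.6 FPKM in CPN against 42.9 to 73.0 in CThPN, a difference of -1.35 that did not pass the limit, and the classes overlapped late.

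The group III receptors Grm4, Grm7 and Grm8, also coupled to Gi/o, act mainly as presynaptic autoreceptors. Grm8 was 1.196, 2.54, 2.87, 3.56, 4.44 and 4.17 FPKM in CPN and 5.26, 9.11, 10.6, 18.2, 38.0 and 41.3 FPKM in CThPN. It was higher in CThPN at all 6 ages, with class differences of -1.67 early and -2.94 late, and its age difference was 1.90 in CThPN and 0.63 in CPN. Grm7 was 6.31, 20.0, 33.5, 57.5, 77.4 and 61.1 FPKM in CPN and 6.96, 8.41, 12.8, 24.9, 31.1 and 24.8 FPKM in CThPN. It was higher late in CPN, with 1.56 against 1.17 in CThPN, a call that was lost when the groups were scaled to equal sums over genes longer than 300 nt. Grm4 was 1.21, 3.17, 6.30, 13.3, 13.8 and 9.34 FPKM in CPN and 3.42, 2.88, 4.46, 5.64, 18.05 and 16.5 FPKM in CThPN. Its age difference was 1.87 in CThPN, where both late values were above all early ones, and 1.15 in CPN. Grm5, the Gq-coupled member of group I, stayed between 12.0 and 53.2 FPKM over the 12 groups and passed no limit between early and late or between classes at either, although its class difference was 1.80 at P3.

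The GABA-B receptor is a pair of Gabbr1, which binds GABA, and Gabbr2, which couples to Gi/o. Gabbr1 had the highest FPKM of the 41 genes in all 12 groups, from 90.9 to 276.1. Gabbr2 ranged from 20.3 to 119.3 FPKM. Late values lay above early ones for both genes in both classes, with age differences of 1.17 and 0.92 for Gabbr1 and 1.47 and 1.37 for Gabbr2 in CPN and CThPN, all below the limit. Gabbr2 was close to it and was called in both classes at a limit of 1 and without P7, and in CPN also with a pseudocount of 0.1 and with P21 as the late age. Their class differences were between -0.14 and 0.17.

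The muscarinic receptors for acetylcholine were among the genes higher late in both classes. Chrm1, the main Gq-coupled muscarinic receptor of cortical pyramidal cells, was 4.92, 11.2, 18.3, 38.5, 99.2 and 71.5 FPKM in CPN. CThPN had 5.45, 7.96, 9.18, 18.51, 67.4 and 64.8 FPKM. The late values were above all early ones in each class, with age differences of 2.48 and 2.70. Chrm3, also coupled to Gq, was 2.86, 3.29, 2.76, 4.65, 20.9 and 17.8 FPKM in CPN and 0.557, 1.46, 3.13, 7.94, 12.3 and 17.0 FPKM in CThPN, with age differences of 2.23 and 2.17. Chrm4, which couples to Gi/o, was 0.120, 0.928, 3.06, 7.36, 22.6 and 19.3 FPKM in CPN and 0.236, 0.288, 1.10, 4.36, 6.86 and 6.45 FPKM in CThPN. Its age difference was 2.90 in the first and 1.90 in the other, and it was the muscarinic gene past the limit between classes late, at 1.52.

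The nicotinic subunits, which form cation channels opened by acetylcholine, behaved differently from one another. Chrna4, a main subunit of high-affinity channels, was 1.81, 3.73, 4.42, 5.77, 2.93 and 2.48 FPKM in CPN. Its CThPN values were 3.78, 6.54, 13.2, 31.8, 40.95 and 35.5 FPKM. Each age had the higher value in CThPN, and the class difference went from -1.27 early to -3.40 late. Chrna5, an accessory subunit that joins Chrna4 and Chrnb2, was 1.03, 0.556, 1.27, 0.465, 0.0342 and 0.138 FPKM in CPN. In CThPN it was 2.09, 1.34, 1.52, 2.39, 9.94 and 28.6 FPKM. Its late values were below all early ones in CPN and above all early ones in CThPN, with age differences of -0.73 and 2.68, and its late class difference was -4.05, from -3.40 at P21 and -4.70 at P48. Chrnb2, the usual partner, stayed between 7.87 and 16.02 FPKM in all groups, and its late class difference was -0.09. Chrna7, which forms channels of its own, went from 21.2 FPKM at E18.5 to 4.95 at P48 in CPN and from 27.5 to 10.3 in CThPN, age differences of -1.08 and -1.01 that did not reach the limit.

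Among noradrenaline receptors, 4 of 5 genes were higher late in CPN (10.9% of all genes) and 0 of 5 in CThPN (9.19%). The CThPN count depends on the limit, since Adra1b (1.30) and Adra1d (1.40) lay just under it with late values above all early ones. Both were called there at a limit of 1, Adra1d also with a pseudocount of 0.1 and Adra1b also without P7. Adrb1, a Gs-coupled beta receptor, was 0.826, 1.34, 1.88, 7.47, 33.6 and 37.8 FPKM in CPN. CThPN had 10.6, 13.6, 15.0, 9.23, 14.4 and 11.1 FPKM. The order of the classes turned over: all early values were higher in CThPN and both late values in CPN, with class differences of -2.01 and 1.42, of which the late one was just under the limit. The age difference was 3.52 in CPN and 0.08 in CThPN.

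Adra1b, a Gq-coupled alpha receptor, was 0.457, 1.04, 0.887, 2.33, 18.6 and 14.0 FPKM in CPN and 4.56, 11.2, 15.97, 20.7, 21.7 and 41.04 FPKM in CThPN. CThPN was higher at all ages, but the difference narrowed from -2.60 early to -0.85 late. Adra1d, coupled to Gq as well, was listed at 0.0 FPKM in CPN at E18.5 and was 0.103, 0.0505, 0.485, 16.5 and 12.4 FPKM there from P1 to P48. Its CThPN values were 0.184, 0.104, 0.0845, 0.0364, 2.11 and 1.73 FPKM. Levels early were close to 0 in both classes, and the late class difference was 2.39. Adra2c, a Gi/o-coupled receptor, was 5.37, 3.25, 0.911, 0.381, 10.1 and 9.15 FPKM in CPN and 2.196, 3.69, 4.02, 3.06, 2.38 and 3.09 FPKM in CThPN. It dipped at P3 and P7 in CPN before its highest values at P21 and P48, and its class difference went from -0.52 to 1.52. Adra2a, the other Gi/o-coupled gene, was 0.943, 1.37, 1.63, 3.12, 3.05 and 0.906 FPKM in CPN and 1.51, 4.72, 9.37, 17.5, 10.1 and 8.73 FPKM in CThPN. It was highest at P7 in both classes and higher in CThPN at every age, with a late class difference of -1.90, a call that was not made at P21 alone.

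The dopamine receptor gene of the Gs-coupled kind, Drd1a, was 1.06, 2.39, 3.30, 4.64, 0.462 and 0.422 FPKM in CPN. In CThPN it was 39.6, 50.7, 48.9, 36.9, 14.4 and 17.7 FPKM. All values of CThPN were above all those of CPN. The class difference was nearly the same early (-3.63) and late (-3.56) on the scale used, which depends on the pseudocount. With one of 0.1 it was -4.06 early and -4.89 late. The mean FPKM of CThPN was 15.4 times that of CPN early and 36.3 times late. Late values were below early ones in both classes, with age differences of -1.32 and -1.40 that did not reach the limit. Other dopamine receptor genes were not analysed here.

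The serotonin receptor genes Htr2a (coupled to Gq) and Htr7 (coupled to Gs) both ended higher in CPN by different courses. Htr2a, the target of classical psychedelic drugs, was 0.761, 0.751, 0.800, 3.95, 16.6 and 11.9 FPKM in CPN and 4.56, 3.55, 3.36, 3.16, 3.20 and 2.85 FPKM in CThPN. Early it was lower in CPN at 3 of the 4 ages, and late it was higher there, with class differences of -1.02 and 1.91. Its age difference was 2.72 in CPN and -0.20 in CThPN. Htr7 was 0.226, 1.03, 4.87, 12.9, 6.75 and 5.45 FPKM in CPN and 0.548, 1.27, 6.41, 11.2, 1.06 and 0.608 FPKM in CThPN. It peaked at P7 in both, at similar levels, and at P21 was 6.75 FPKM in CPN and 1.06 FPKM in CThPN, a late class difference of 1.96.

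Both histamine receptor genes were higher late in both classes. Hrh1, coupled to Gq and the target of sedating antihistamines, was 0.0174, 0.114, 0.426, 3.61, 42.8 and 31.1 FPKM in CPN. CThPN had 0.134, 0.102, 0.358, 1.34, 8.34 and 8.003 FPKM. Hrh3, coupled to Gi/o, was 0.558, 1.77, 2.55, 5.97, 51.4 and 60.7 FPKM in CPN and 1.48, 3.40, 4.20, 4.03, 19.8 and 13.2 FPKM in CThPN. All 4 courses had their late values above every early value, with age differences of 4.51 and 2.70 for Hrh1 and 4.15 and 2.06 for Hrh3. Early class differences were small, 0.23 and -0.35, and late ones were 2.03 and 1.73, both toward CPN, although Hrh3 did not pass the limit at P21 alone.

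**Figure D4:**
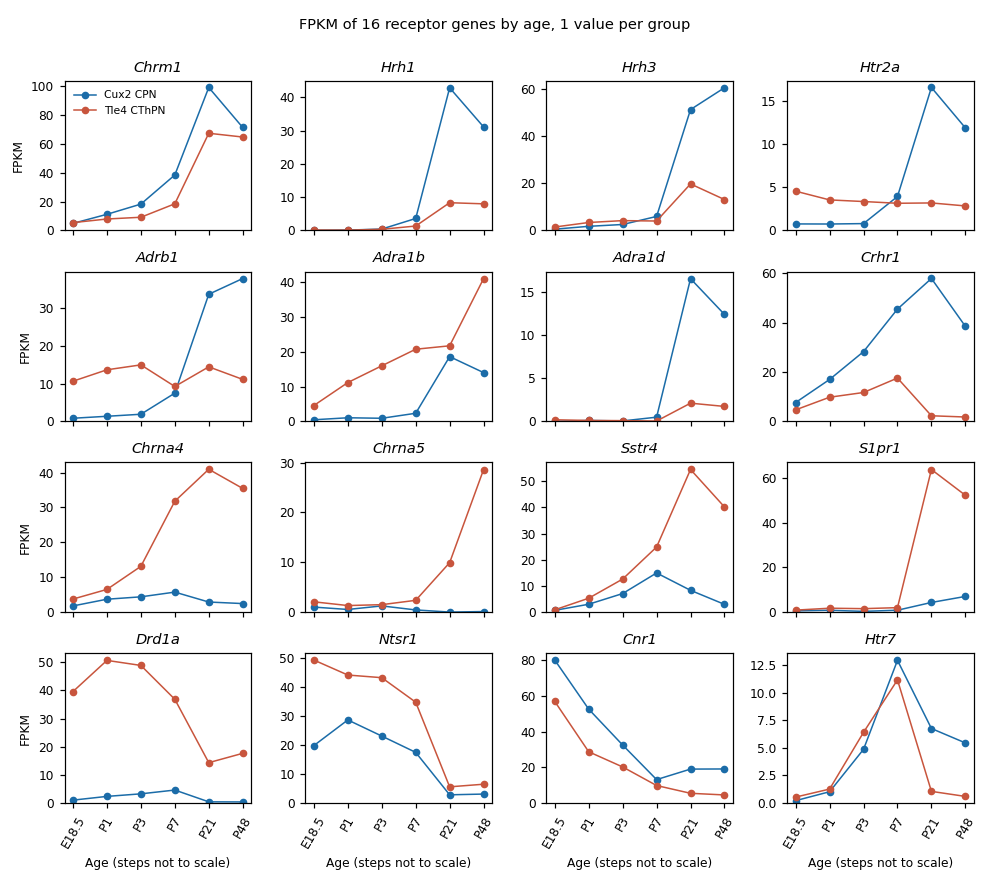
FPKM of 16 receptor genes at the 6 ages (evenly spaced, not to scale) in CPN (blue) and CThPN (red), 1 point per group and no error, with a separate axis from 0 for each gene. Hrh1, Hrh3, Htr2a, Adra1d and Crhr1 end higher in CPN, Chrna4, Chrna5, Sstr4, S1pr1 and Drd1a end higher in CThPN, and Ntsr1 falls to between 2.86 and 6.50 FPKM in both.

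Among receptors for adenosine and ATP, Adora1 and P2rx4 had age differences above 0 and P2rx2 below 0 in both classes. Adora1, a Gi/o-coupled adenosine receptor that damps release, was 6.66, 11.68, 12.6, 22.7, 85.0 and 73.0 FPKM in CPN and 29.3, 40.4, 41.03, 45.6, 100.0 and 94.2 FPKM in CThPN. It was higher in CThPN at all ages, with class differences of -1.57 early and -0.30 late. The classes came closer as CPN had the larger age difference, 2.58 against 1.31. P2rx4, an ATP-gated channel, was 1.78, 2.06, 2.47, 2.89, 12.9 and 16.6 FPKM in CPN and 3.15, 3.35, 3.24, 5.04, 8.71 and 13.4 FPKM in CThPN, with age differences of 2.25 and 1.35. P2rx2, another ATP-gated channel, was 3.60, 6.08, 6.09 and 2.79 FPKM from E18.5 to P7 in CPN and is listed at 0.0 at P21 and P48. Its CThPN values were 8.45, 9.61, 10.7, 11.3, 0.0510 and 0.0189 FPKM. It was thus lower late in both classes, at or close to 0.

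Cnr1, the cannabinoid receptor of axon terminals, was 80.1, 52.6, 32.5, 13.2, 19.0 and 19.1 FPKM in CPN. In CThPN it was 56.9, 28.7, 20.2, 9.86, 5.505 and 4.58 FPKM. Levels fell from E18.5 to P7 in both classes, and then continued down in CThPN but not in CPN, with a late class difference of 1.74. The sphingosine-1-phosphate receptor genes S1pr1 and S1pr3 ended in opposite classes. S1pr1, coupled to Gi/o, was 0.607, 0.878, 0.392, 0.906, 4.36 and 7.05 FPKM in CPN and 0.950, 1.80, 1.60, 2.05, 63.6 and 52.1 FPKM in CThPN. S1pr3, which couples to several G proteins, was 0.311, 0.606, 0.577, 1.52, 11.67 and 11.1 FPKM in CPN and 0.225, 0.536, 0.604, 1.82, 1.42 and 1.69 FPKM in CThPN. Late class differences were -3.16 for S1pr1 and 2.28 for S1pr3, and early values of both were at most 2.05 FPKM.

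S1pr1 is abundant in astrocytes and endothelial cells, and Ntsr2 in astrocytes, so the markers of these cells are given beside them. The summed FPKM of 6 astrocyte markers (of 8 in the list) was 10.5 to 30.5 early and 125.7 to 152 late in CPN, and 26.9 to 49.6 early and 373.7 to 468 late in CThPN. Of the 6, 4 were higher late in CPN, 5 in CThPN, and 3 were higher late in CThPN than in CPN. Gja1, the astrocyte gap junction gene, was 72.5 and 53.6 FPKM at P21 and P48 in CThPN and 4.58 and 6.05 in CPN. The 2 endothelial markers analysed (of 12), Cldn5 and Ly6c1, summed to 0.298 to 4.95 FPKM early, 38.1 at P21 and 15.1 at P48 in CThPN, and to 0.56 to 5.17 early, 5.54 at P21 and 7.5 at P48 in CPN. The part of these cells in the values of S1pr1 and Ntsr2 was not tested.

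Neuropeptide receptors were the largest group, with 10 genes. Crhr1, the Gs-coupled receptor for corticotropin-releasing hormone whose promoter is shown above, was 7.65, 17.0, 28.3, 45.6, 58.0 and 38.6 FPKM in CPN. CThPN had 4.67, 9.79, 11.71, 17.6, 2.27 and 1.77 FPKM. Both classes went up to P7, after which CPN stayed high and CThPN dropped below all its earlier values, so that the class difference went from 0.97 to 4.01, the largest toward CPN of any receptor gene, also with P21 alone (4.17).

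Somatostatin receptors couple to Gi/o and answer the peptide of a main class of interneurons. Sstr4 was 0.723, 3.05, 7.13, 15.0, 8.36 and 3.01 FPKM in CPN and 0.926, 5.35, 12.6, 24.9, 54.4 and 40.2 FPKM in CThPN. The classes were close at E18.5 and moved apart after P7, with a late class difference of -2.96. Sstr1 was 8.27, 19.3, 20.98, 17.6, 19.4 and 10.9 FPKM in CPN and 1.10, 1.82, 3.01, 7.22, 19.2 and 13.6 FPKM in CThPN. The early difference of 2.16 toward CPN had gone by P21, as CThPN had an age difference of 2.2 and CPN one of -0.09. Sstr2 was 20.6, 5.96, 8.97, 30.3, 11.1 and 8.42 FPKM in CPN and 18.9, 28.8, 34.8, 54.0, 47.97 and 44.4 FPKM in CThPN. It was higher in CThPN late, with a class difference of -2.14, and its CPN values went down at P1 and up at P7. Sstr3, which is known for its place in neuronal cilia, was 0.273, 0.482, 1.09, 3.47, 12.99 and 8.62 FPKM in CPN and 0.289, 0.321, 0.446, 1.86, 3.51 and 3.90 FPKM in CThPN, with age differences of 2.50 and 1.53. It was thus higher late in both, although the CThPN call was lost with P21 alone and with scaling to equal sums.

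The neurotensin receptors moved in opposite directions. Ntsr1, whose Cre line is widely used to label layer 6 corticothalamic neurons, was 19.8, 28.6, 23.1, 17.4, 2.86 and 3.12 FPKM in CPN. Its CThPN values were 49.2, 44.0, 43.1, 34.7, 5.60 and 6.50 FPKM. It was higher in CThPN at all 6 ages, with class differences of -0.93 early and -0.82 late that did not pass the limit, and it was lower late in both classes, with age differences of -2.52 and -2.63. Ntsr2 was 1.81, 2.62, 2.59, 0.874, 5.36 and 6.596 FPKM in CPN and 0.516, 1.64, 2.12, 2.94, 27.2 and 27.5 FPKM in CThPN. Its 2 late values in CThPN were above all other groups, with an age difference of 3.42 there and 1.27 in CPN. The summed FPKM of the astrocyte markers given above was highest in the same 2 groups, though not that of each marker.

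Mchr1, the receptor for melanin-concentrating hormone, was 0.238, 0.171, 0.463, 3.38, 13.1 and 6.27 FPKM in CPN and 0.0329, 0.229, 0.951, 9.11, 14.3 and 8.15 FPKM in CThPN. It was higher late in both classes, with age differences of 2.54 and 2.40 and a class difference of -0.22 late. Npy1r, a Gi/o-coupled neuropeptide Y receptor, was 11.74, 19.2, 18.49, 13.2, 23.4 and 21.1 FPKM in CPN and 9.39, 4.76, 6.42, 8.39, 8.10 and 6.34 FPKM in CThPN. It was higher in CPN at all 6 ages, and its late class difference lay at the limit. Oprl1, the nociceptin receptor, ranged from 19.3 to 49.2 FPKM and passed no limit.

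Receptor genes were also summed by coupling. The 4 Gs-coupled genes (Adrb1, Crhr1, Drd1a and Htr7) summed to 9.76, 21.8, 38.3, 70.6, 98.8 and 82.2 FPKM in CPN and 55.5, 75.4, 82.0, 74.8, 32.1 and 31.2 FPKM in CThPN. The sum was lower in CPN from E18.5 to P7 and higher at P21 and P48. Different genes carried it, with Drd1a giving 39.6 of 55.5 FPKM in CThPN at E18.5, and Crhr1 and Adrb1 giving 58.0 and 33.6 of 98.8 FPKM in CPN at P21. The 8 Gq-coupled genes summed to 43.6, 70.8, 90.6, 124.1, 257.6 and 191 FPKM in CPN and 90.2, 86.9, 87.2, 109.6, 149.7 and 160.1 FPKM in CThPN. Here CPN was lower than CThPN at E18.5 and P1 and higher from P3 on. The 20 Gi/o-coupled genes summed to 339.8, 392.2, 404.8, 542.6, 953 and 827.7 FPKM in CPN and 349.9, 428.9, 429.8, 588.6, 838.1 and 805.2 FPKM in CThPN. As for Gs, CPN was lower from E18.5 to P7 and higher at P21 and P48. The 3 genes that couple to several G proteins (Mchr1, Ntsr2 and S1pr3) summed to 2.36, 3.39, 3.63, 5.78, 30.1 and 23.9 FPKM in CPN and 0.774, 2.40, 3.68, 13.9, 43.0 and 37.3 FPKM in CThPN, with CPN lower from P3 on. The 6 ion channel genes summed to 45.4, 44.9, 40.3, 35.7, 33.1 and 32.0 FPKM in CPN and 56.0, 55.5, 60.7, 81.7, 80.0 and 96.3 FPKM in CThPN, with wider differences between the classes from P3 on.

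**Figure D5:**
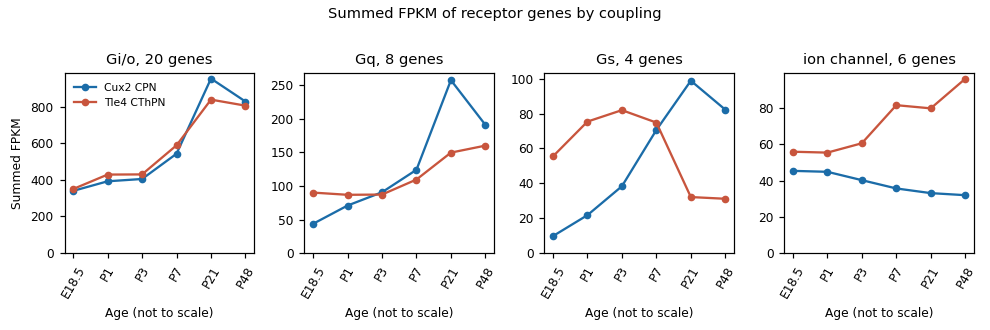
Summed FPKM of the receptor genes by coupling (Gi/o, Gq, Gs) and of the ion channel subunits, at the 6 ages (evenly spaced, not to scale) in CPN (blue) and CThPN (red), 1 point per group and no error. The lines for Gs cross between P7 and P21, from 70.6 and 74.8 FPKM at P7 to 98.8 and 32.1 FPKM at P21 in CPN and CThPN.

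Genes of the proteins that carry the receptor signal were counted against the same shares of all genes, 10.9% higher and 7.04% lower late in CPN and 9.19% and 5.46% in CThPN. Of 11 G protein alpha subunit genes, 0 were higher late in either class, while 2 were lower late in CPN and 1 in CThPN. Gnai3 was 60.3, 55.4, 58.0, 48.7, 14.5 and 13.9 FPKM in CPN and was lower late in both. Gnal, the Gs-like subunit of olfactory and striatal neurons, had an age difference of -2.16 in CPN and -0.81 in CThPN. Of 12 beta and gamma subunit genes, 2 were higher and 4 lower late in CPN, and 2 higher and 1 lower in CThPN. Gng13 was 0.0, 1.66, 3.65, 22.4, 142.3 and 139 FPKM in CPN and 0.0, 1.03, 3.04, 12.3, 94.1 and 97.0 FPKM in CThPN, while Gng5 had age differences of -2.77 and -1.96.

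All 3 GIRK channel genes analysed (Kcnj3, Kcnj6 and Kcnj9), the potassium channels that Gi/o-coupled receptors open, were higher late in both classes. Kcnj9 was 0.7002, 2.45, 6.12, 34.2, 119.4 and 105.3 FPKM in CPN and 3.64, 6.37, 11.9, 33.5, 85.3 and 78.1 FPKM in CThPN. Of 8 genes for phospholipase C beta, the calcium release receptors and protein kinase C, 1 was higher late in CPN and 6 in CThPN, with 1 lower in each, Prkcd, which had age differences of -3.25 and -2.41. Prkcb had age differences of 2.12 and 2.91. Of 5 adenylyl cyclase genes, 2 were higher late in CPN and 1 in CThPN, with Adcy2 at 1.55 and 2.01 and Adcy9 at 1.56 and 1.05. Of 6 genes for subunits of the cyclic AMP-dependent kinase, 0 were higher and 1 lower late in CPN, and 1 was higher and 1 lower in CThPN, with Prkar2b at -2.00 and -1.99 and Prkar1b at 1.19 and 1.59.

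Of 9 cyclic nucleotide phosphodiesterase genes, 4 were higher late in CPN and 2 in CThPN, with Pde1a at 3.66 and 4.94 and Pde8b at 2.85 and 3.07. Of 16 RGS genes, whose proteins speed the switching off of G proteins, 7 were higher and 1 lower late in CPN, and 4 higher and 1 lower in CThPN. Rgs4 was 2.04, 6.61, 29.0, 139.2, 1072 and 804.8 FPKM in CPN and 23.9, 63.0, 71.1, 98.9, 451.9 and 259.7 FPKM in CThPN. Rgs14 had age differences of 4.55 and 4.08. The 4 receptor kinase and arrestin genes passed no limit, with Grk6 at -0.48 and -0.23 and Arrb2 at -0.49 and -0.82. Of 11 receptor partner genes, 5 were higher and 1 lower late in CPN, and 2 higher and 2 lower in CThPN. Lynx1, whose protein binds nicotinic receptors, had age differences of 3.88 and 5.18, and Kctd16, an auxiliary subunit of GABA-B receptors, 2.57 and 3.00. Among 19 genes for ligand synthesis, precursors, transport and removal, 7 were higher late in CPN, and 3 were higher and 1 lower in CThPN. Npy, the peptide precursor for Npy1r, was 233.3, 415.5, 333.5, 101.8, 145 and 222.5 FPKM in CPN and 1334, 816, 613.9, 147.9, 73.4 and 3.97 FPKM in CThPN. Enpp2, which makes lysophosphatidic acid, had age differences of 3.40 and 2.94.

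The labelled classes carried their defining genes: Cux2 was 31.0 to 73.0 FPKM in CPN and 0.608 to 4.65 FPKM in CThPN, and Tle4 was 2.02 to 7.74 and 75.0 to 164.6 FPKM. Markers of other cells moved with class or age, and their part in the receptor values was not tested. Of 11 interneuron markers, 8 were higher in CPN early and 7 late and 0 in CThPN. Their sum was 365 to 652.8 FPKM early and 505.8 to 866.8 late in CPN, and 168.4 to 1352 and 39.0 to 158 in CThPN, where Npy alone was 1334 FPKM at E18.5. In CPN at P21 and P48, Sst alone was 283.4 and 538.1 FPKM and Npy 145 and 222.5. The list split with age. In CPN 3 markers were higher late and 4 were lower, namely Dlx1, Dlx2, Dlx5 and Lhx6. In CThPN 2 were higher late and 1 was lower. Pvalb was listed at 0.0 in CPN at E18.5 and P1 and in CThPN at E18.5. Gad1 was 18.1 to 34.2 FPKM in CPN and 0.971 to 6.95 in CThPN. Of 4 subplate and layer 6b markers, 3 were higher in CThPN early and 2 late, with sums of 57.5 to 184 FPKM there and 3.63 to 11.8 in CPN. With the late ages moved oligodendrocyte markers (6 of 7 higher late in each class, sums of 12.5 to 31.6 FPKM early and 116.5 to 299.4 late). Haemoglobin genes did so too (4 of 4 in each, 3.58 to 38.0 early and 20.8 to 218.7 late). So did genes listed as induced by dissociation, such as Fos and Egr1 (7 of 8 in CPN and 6 of 8 in CThPN, 70.5 to 150.3 early and 1316 to 2470 late). Whether dissociation raised their late values was not tested. Of 6 microglial markers, 0 passed the limit in either class between early and late, and their sum was 7.95 to 43.4 FPKM in all groups but CThPN at P21, where it was 100.3. Of 3 progenitor markers, 2 were higher and 1 lower late in CPN and 1 was higher in CThPN. Of 7 glutamatergic neuron genes, 1 was higher and 1 lower late in CPN and 2 were higher in CThPN, among them Slc17a7, the vesicular glutamate transporter gene, at 713.4 to 1063 FPKM in the late groups. The FPKM of genes longer than 300 nt summed to between 494726 and 600502 in the 12 groups, while all genes summed to 2779510 to 4413120 in CPN and 506342 to 592001 in CThPN.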

How the data were processed

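RNA-seq of 24 libraries, 2 for each of 12 groups, gave the values used. Per the methods and labels, reads were trimmed (Trimmomatic) and aligned to mouse build NCBI37 (mm9) with TopHat2, and the authors obtained FPKM from Cuffdiff. The FPKM they deposited are 1 value per gene and group over both libraries, and the option used to normalize between libraries is not given in the sources used here. Genes of up to 300 nt can have inflated FPKM.

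Differences of log2(FPKM + 1) were computed in Python 3.11.15 with numpy 2.4.6 and pandas 2.3.3, and figures were drawn with matplotlib 3.10.9. The computation was tested on simulated data. No test between groups was possible with 1 value per group, and FPKM hold no depth, of which the methods give a minimum. All 41 receptor genes were placed on the GENCODE annotation of NCBIM37, in which 9631 of the symbols were found. The kit does not keep strand, so reads of genes that overlap on opposite strands cannot be told apart. Promoters came from a RefSeq table of build GRCm38.p6, and the printed windows were matched exactly to NCBIM37, which gave their coordinates.

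The receptor genes and the gene lists were chosen with earlier results of these data known. Values in all groups are given for receptor genes past the limit of 1.5 in any age or class difference, and for each signalling list the 2 genes with the largest mean age difference are named. Alternatives included a smaller pseudocount (0.1), scaling by median ratios or to the sum over longer genes, a minimum of 30 FPKM, limits of 1 and 2, early ages without P7, and P21 as the late age.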

Additional observations from a re-analysis of the deposited data

Results flagged for a closer look

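Chrna5, the accessory nicotinic subunit, is listed for a closer look because its age difference had opposite directions in the classes. It was -0.73 in CPN, where both late values lay below all 4 early ones, and 2.68 in CThPN, where both late values lay above all 4 early ones. The difference was not tested, since each group has 1 value, and the CPN values were at most 1.27 FPKM.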

How the results depend on the processing

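No paired analysis was possible because the table has 1 value per group and its columns carry no replicate numbers, and for the same reason no replicate could be left out. Of 454 recomputed values of the 82 receptor differences past the limit, 0 reversed and 12 fell below it. Part of the 454 could not move. A minimum of 30 FPKM leaves the values of the genes it keeps as they were. Leaving out P7 cannot move a late class difference, and P21 as the late age cannot move an early one. With a minimum of 30 FPKM, which 22 receptor genes reach, the counts were 8 higher and 1 lower late in CPN (12.3% and 7.78% of all genes at this setting), 7 higher late in CThPN (9.94%), 1 higher in CPN early (2.81%), 5 higher in CPN late (3.2%), 8 with a shifted class difference (6.24%) and 21 dynamic (46.2%). With a limit of 1, 4 of the 41 genes were lower late in CPN (13.8% of all genes) and 7 in CThPN (11.7%), and 11 were higher in CThPN early (4.81%). A limit of 2 left 3 higher in CThPN early (1.4%) and 5 higher in CPN late (2.35%). A pseudocount of 0.1 gave 4 lower late in CPN (8.59%), adding Chrna5 and Drd1a. With that pseudocount the age difference of Adra1d in CPN was 6.13, between those of Hrh1 (6.28) and Hrh3 (4.73). Fewer genes or a stricter limit can only lower a count. Whether genes with low FPKM carried more of the calls was not tested. Scaling to the sum over genes longer than 300 nt moved the median age difference of all genes to -0.094 in CPN and -0.107 in CThPN, and with it Grm7 was no longer higher late in CPN, Sstr3 no longer in CThPN, and Drd1a was lower late in CThPN. The spread between the libraries of a group is unknown, as is the read number behind each value.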
